A study of Mus musculus with 6 samples.

Results

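The proteasome genes described here were found by name, as genes with a single annotated symbol that starts with Psma to Psmg and a number. On these arrays 48 of 12393 measured genes met that rule. Of these, 46 encode subunits, activators, the inhibitor or assembly factors of the proteasome. The other 2, Psmc3ip, a recombination factor, and Psme3ip1, which binds an activator subunit, encode none of these and are given apart. Psme2 was not analysed here because its probe set is annotated to a pair of genes. RNA of sorted CD4+YFP+ mouse cells, labelled regulatory T cells (Treg), was measured on 6 arrays. Treg are CD4 T cells defined by the factor Foxp3 that restrain immune responses, and the mice had a C57BL/6 background. The 3 control arrays have B6_WT titles and the genotype Foxp3cre, in which Cre is expressed from Foxp3. The other 3 arrays have USP7 titles, and the series text gives their genotype as fl-Usp7/Foxp3cre, whereas their genotype field reads fl-HDAC11/Foxp3cre, so they are called USP7-titled. Both groups thus carry Foxp3cre. The series text calls the samples of a group independent, but the labels do not tie them to animals and state neither age nor sex. The tests therefore measure spread among these arrays, which may be technical.

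The labels were first set against the arrays. Usp7, the deubiquitinase of the series title, fell by 1.01 on the log2 scale (SE 0.07, limma adjusted p = 1.32e-06) and Hdac11, which was dim, fell by 0.58 (limma adjusted p = 0.0154). Foxp3 itself went from 12.98 to 7.004, a change of -5.98, while Cd4 read 12.82 and 12.83 and Il2ra 12.85 and 12.68, so the transcript that defines the sorted cells was low in the USP7-titled arrays. The X-inactivation RNA Xist read 12.50 in the controls and 5.30 in the USP7-titled arrays and the Y-linked Eif2s3y 4.50 and 10.15, a female and a male pattern, so that sex and group cannot be told apart. Across gene probe sets Pearson's r between arrays was 0.9947 to 0.9956 within the controls, 0.9913 to 0.9924 within the USP7-titled arrays and 0.9688 to 0.9739 between groups.

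The proteasome degrades proteins that carry ubiquitin chains. Its barrel-shaped core particle is built of outer alpha rings, which gate entry, and inner beta rings, which hold the proteolytic sites. A regulatory particle caps the barrel; its base of ATPases unfolds substrates and its lid and other non-ATPase subunits bind ubiquitin and cut it off. In lymphocytes and after interferon gamma, the catalytic beta subunits Psmb5, Psmb6 and Psmb7 are partly replaced by Psmb8, Psmb9 and Psmb10, which form the immunoproteasome and favour peptides for MHC class I. Deubiquitinases such as Usp7 act upstream, by removing ubiquitin from proteins before they reach the proteasome.

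Proteasome genes were higher by small amounts in the USP7-titled arrays, and most of them together. By limma's moderated test with Benjamini-Hochberg adjustment over all genes, 35 of 46 were higher and 1 was lower, while 17% of all genes tested were higher and 15.9% lower. The median change of the 46 was 0.33 on the log2 scale, beside -0.05 over all genes. In 38 of the 46 every USP7-titled array lay above every control array, beside 20.9% of all genes, and in 0 every one lay below, beside 24.7%. Since 45 of the 46 are bright, with a mean of 9 or more on the log2 scale, their count may also be read against the 4604 genes that bright, of which 29.6% were higher and 23% lower, with a median change of 0.04. The array medians of the 46, each gene taken relative to its control mean, were -0.03 to 0.02 in the controls and 0.29 to 0.35 in the USP7-titled arrays. All 3 USP7-titled arrays thus showed it. At the stricter adjusted p of 0.01, 24 were higher and 0 lower, beside 12% and 9.73% of all genes. In RNA from a whole sorted population, a different share of cells and a different amount of RNA per cell cannot be told apart.

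**Figure D1:**
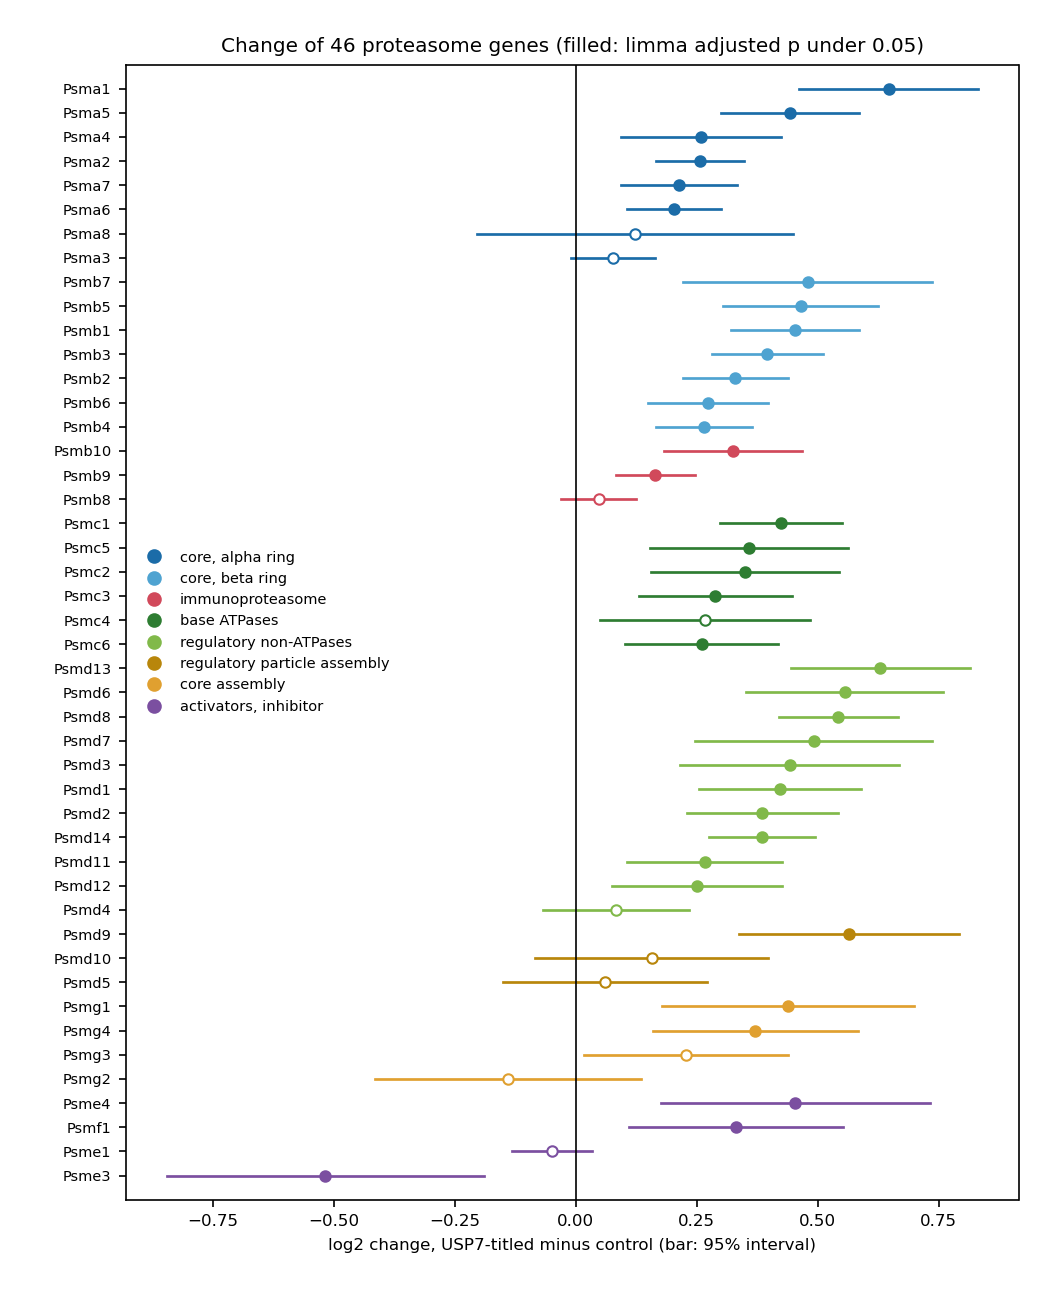
Log2 change (USP7-titled minus control, horizontal axis) of each of the 46 proteasome genes, coloured by role; bars are 95% intervals from limma and filled points passed an adjusted p of 0.05. Of the points, 43 lie above 0, Psme3 is the only filled one below it, and Psma1 lies furthest to the right at 0.65.

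The size of the change depends on how arrays are put on one scale. Scaled to the 18 hybridization spike probe sets, 40 of the 46 passed as higher and 0 as lower, and their median was 0.49, and the median of all genes moved as well, from -0.05 to 0.11, and 75.9% of all calls were rises in place of 51.5%. The members' median lay 0.38 above that of all genes under both scalings, by construction, and 0.28 above it with quantile normalization, where 31 were higher and 1 was lower.

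The stretches of 250 bases before the start of 4 of these genes are shown because they stand for the main patterns: Psma1 rose furthest, Psmb5 is a catalytic subunit that rose, Psmb8, its immunoproteasome counterpart, did not pass, and Psme3 fell. They were taken from RefSeq's promoter table (assembly GRCm38.p6) and are written 5′ to 3′ on the gene's strand, with matches to the motifs named after them in capitals.
Psma1, chr7:114276117-114276366, minus strand: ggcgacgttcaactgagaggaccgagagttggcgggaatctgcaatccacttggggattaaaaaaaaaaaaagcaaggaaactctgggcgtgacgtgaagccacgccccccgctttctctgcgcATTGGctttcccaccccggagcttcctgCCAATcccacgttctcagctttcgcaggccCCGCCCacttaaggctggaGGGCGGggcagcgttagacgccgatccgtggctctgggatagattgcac
Psmb5, chr14:54617996-54618245, minus strand: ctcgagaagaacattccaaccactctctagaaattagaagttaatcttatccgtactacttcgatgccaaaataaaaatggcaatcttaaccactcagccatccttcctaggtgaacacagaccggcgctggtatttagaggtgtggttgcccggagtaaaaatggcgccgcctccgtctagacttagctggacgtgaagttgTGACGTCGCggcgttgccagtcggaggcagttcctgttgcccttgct
Psmb8, chr17:34197945-34198194, plus strand: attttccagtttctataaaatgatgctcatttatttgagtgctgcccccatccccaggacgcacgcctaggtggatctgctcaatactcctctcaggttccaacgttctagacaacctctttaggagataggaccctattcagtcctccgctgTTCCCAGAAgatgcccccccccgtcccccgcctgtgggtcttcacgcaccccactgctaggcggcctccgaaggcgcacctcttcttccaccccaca
Psme3, chr11:101315963-101316212, plus strand: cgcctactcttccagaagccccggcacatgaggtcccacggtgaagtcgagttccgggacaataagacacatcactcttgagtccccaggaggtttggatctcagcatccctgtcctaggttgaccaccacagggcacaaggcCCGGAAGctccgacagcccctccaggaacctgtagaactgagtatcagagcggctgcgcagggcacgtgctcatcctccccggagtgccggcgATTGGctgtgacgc
In Psma1 the capitals mark a pair of CCAAT boxes (CCAAT, starting 126 and 98 bases before the gene's start) and a pair of GC boxes (GGGCGG, at 68 and 49 bases). In Psmb5 they mark the core of an antioxidant response element (TGACNNNGC, at 47 bases), the kind of site to which Nfe2l1 binds. In Psmb8 they mark the core of a STAT element (TTCNNNGAA, at 97 bases), and in Psme3 an ETS core (CCGGAAG, at 107 bases) and a CCAAT box (at 14 bases).

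These 5 motifs and an IRF core (GAAA, any pair of bases, GAAA) were searched on both strands in the same window of the 38 members with an entry, at the first listed start of each gene, and in 9887 tested genes. They were picked with the members' results known, and a match describes letters, not a bound site. The antioxidant response element core stood in 5 of 38 members (13.2%) and in 11.7% of tested genes. These are Psmb5, Psmb6, Psmc6, Psmd9 and Psmd12, and each of them was higher, as were 24 of the 33 members without it. The ETS core stood in 11 of 38 members (28.9%) and in 11.6% of tested genes, and in 6.91% of all 32851 listed promoters. Of the 11 members with it 9 were higher, among them Psmc1, Psmd6 and Psmg1, as were 20 of the 27 without it. Psmd4, which did not pass, and Psme3 also hold it. CCAAT boxes (34.2% of members, 35.8% of tested genes) and GC boxes (55.3% and 53.2%) were about as frequent in members as in tested genes. The IRF core was in 3 of 38 members (7.89%), Psmb3, Psmd4 and Psmd9, and in 2.79% of tested genes. The STAT core was in 2 of 38 members (5.26%), Psmb8 and Psmg1, and in 6.05% of tested genes.

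The alpha ring of the core particle had 6 of 8 genes higher, with a median of 0.23. Psma1 read 10.35, 10.19 and 10.48 in the controls and 11.02, 11.01 and 10.93 in the USP7-titled arrays. The means were 10.34 ± 0.15 and 10.99 ± 0.05 (SD, n = 3 per group), which is 1.57-fold or 0.65 on the log2 scale (SE 0.08, 95% interval 0.46 to 0.83, limma adjusted p = 0.000141). The groups did not overlap, and the gap between them was wider than the spread within either. A dim probe set of Psma1 fell, and averaged over all its probe sets the gene was at -0.16 (limma adjusted p = 0.298). Psma5 read 11.06, 11.03 and 10.91 in the controls and 11.39, 11.51 and 11.42 in the USP7-titled arrays, again without overlap, and rose by 0.44 (SE 0.06, limma adjusted p = 0.00032). Psma4, Psma2, Psma7 and Psma6 rose by 0.26, 0.26, 0.21 and 0.20, and Psma6 turned to -0.028 averaged over its probe sets. By eBayes without trend Psma4, Psma7 and Psma6 lost their calls (limma adjusted p = 0.066, 0.103 and 0.0883). With quantile normalization Psma4 and Psma7 lost theirs (limma adjusted p = 0.067 and 0.0617). Psma4 lost its call without USP7-titled replicate 1 (limma adjusted p = 0.069), control replicate 1 (0.0846) or control replicate 2 (0.0716). Psma3 did not pass, at 0.08 (95% interval -0.01 to 0.16, limma adjusted p = 0.166), although its groups were apart. Nor did Psma8, the alpha subunit of the testis form, whose probe set was dim, at the 17.6th percentile of control means, and whose change was 0.12 (SE 0.15).

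All 7 constitutive beta ring genes rose, by 0.26 to 0.48 with a median of 0.40, and in each the groups were apart. Psmb5, which carries the chymotrypsin-like site, read 10.72, 10.59 and 10.57 in the controls and 11.01, 11.09 and 11.18 in the USP7-titled arrays, higher by 0.46 (SE 0.07, limma adjusted p = 0.000511). Psmb6, with the caspase-like site, read 11.23, 11.23 and 11.35 and then 11.53, 11.55 and 11.54, a change of 0.27 (SE 0.06, limma adjusted p = 0.00314). The USP7-titled values lie close together, above all controls. Psmb7, with the trypsin-like site, read 10.76, 10.80 and 10.29 and then 11.13, 11.14 and 11.02, higher by 0.48 (SE 0.12, limma adjusted p = 0.00859). Its control replicate 3 lay well below the other controls, and without that array the change was 0.32 (limma adjusted p = 0.00633). The non-catalytic Psmb1, Psmb3, Psmb2 and Psmb4 rose by 0.45, 0.40, 0.33 and 0.26.

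Of the 3 immunoproteasome subunits 2 were higher and 1 did not pass, with changes of 0.05 to 0.32. Psmb8, the counterpart of Psmb5, read 12.59, 12.62 and 12.55 in the controls and 12.65, 12.61 and 12.64 in the USP7-titled arrays. These overlap, and its change of 0.05 (95% interval -0.03 to 0.12) did not pass (limma adjusted p = 0.341). Psmb9 read 12.49, 12.55 and 12.46 and then 12.69, 12.65 and 12.65, a change of 0.16 (SE 0.04, limma adjusted p = 0.00532) without overlap. By eBayes without trend Psmb9 lost its call (limma adjusted p = 0.147). Psmb10 read 11.32, 11.40 and 11.55 and then 11.79, 11.70 and 11.76, a change of 0.32 (SE 0.06, limma adjusted p = 0.00259), also without overlap. Scaled to the hybridization spikes, Psmb8 passed as higher by 0.21 (limma adjusted p = 0.0136), beside the shift of 0.11 of all genes in that scaling.

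Whether the alternative subunits of a position changed unequally was tested on their difference within each array. For Psmb8 minus Psmb5 it was 1.87, 2.04 and 1.97 in the controls and 1.64, 1.53 and 1.46 in the USP7-titled arrays, lower by 0.42 and without overlap. The two-sided exact permutation p was 0.1, the smallest that 3 against 3 arrays allow, and 0.3 after adjustment over the 3 pairs. Psmb9 minus Psmb6 was lower by 0.11 (exact permutation p = 0.2, adjusted 0.3) with overlapping groups. Psmb10 minus Psmb7 was lower by 0.15 (exact permutation p = 0.8, adjusted 0.8), and without control replicate 3, where Psmb7 was low, it was higher by 0.07. No pair passed the test, which cannot pass in this design. The fold of each subunit is its own, since the level of one probe set cannot be set against that of another.

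**Figure D2:**
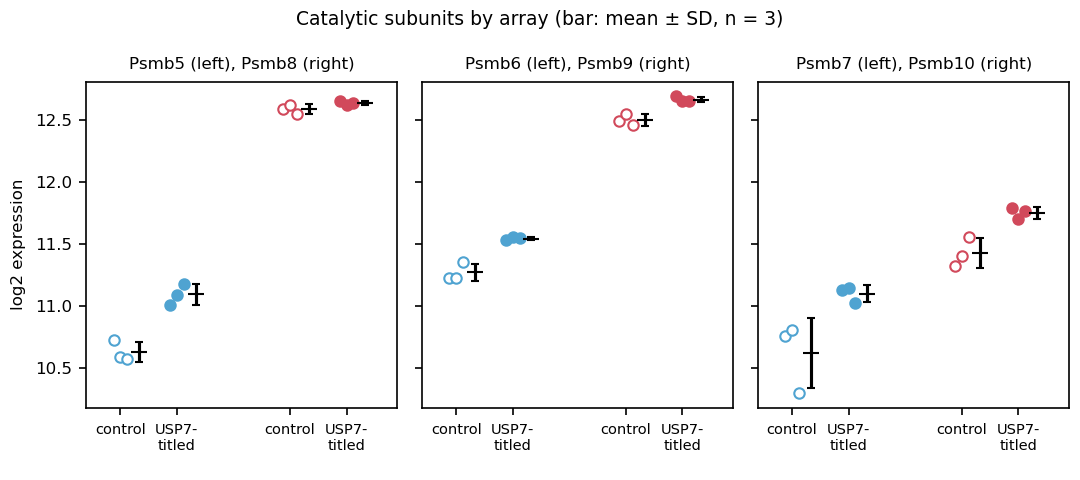
Log2 expression (vertical axis) of the catalytic beta subunits (blue) and their immunoproteasome counterparts (red) in each array, control arrays open and USP7-titled arrays filled, with mean ± SD of 3 arrays in black. Psmb5, Psmb6 and Psmb7 rise by 0.27 to 0.48 and Psmb9 and Psmb10 by 0.16 and 0.32, whereas the Psmb8 groups overlap around 12.6.

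In the regulatory particle 5 of 6 base ATPases were higher, with a median of 0.32. Psmc1 read 11.14, 11.05 and 11.04 in the controls and 11.49, 11.55 and 11.47 in the USP7-titled arrays, higher by 0.42 (SE 0.06, limma adjusted p = 0.000195). Averaged with its dim probe set it was at 0.24 and did not pass (limma adjusted p = 0.114). Psmc5 read 10.04, 10.21 and 10.38 and then 10.51, 10.55 and 10.64, a change of 0.36 (SE 0.09, limma adjusted p = 0.012). Both sets of arrays were apart, but Psmc5 varied more among the controls, and without control replicate 1 its limma adjusted p was 0.0541. Psmc2, Psmc3 and Psmc6 rose by 0.35, 0.29 and 0.26, and Psmc6 lost its call without USP7-titled replicate 2 (limma adjusted p = 0.0743) or control replicate 1 (0.0628), and averaged over its probe sets (0.17, limma adjusted p = 0.236). Psmc4 did not pass, at 0.27 (limma adjusted p = 0.0591), but did with the replicate number as a block (limma adjusted p = 0.0212) and without control replicate 3 (limma adjusted p = 0.0141). It also passed in further settings, among them the mean of its probe sets (0.32, limma adjusted p = 0.0091) and spike scaling (limma adjusted p = 0.0164). A second bright Psmc4 probe set was higher by 0.37 (limma adjusted p = 0.00422 in a fit of all probe sets).

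The non-ATPase subunits rose in 10 of 11 genes, with a median of 0.42. Psmd13, a lid subunit, read 9.74, 9.68 and 9.82 in the controls and 10.41, 10.45 and 10.28 in the USP7-titled arrays, 1.55-fold higher, or 0.63 on the log2 scale (SE 0.08, limma adjusted p = 0.000176). Psmd6, also of the lid, read 10.28, 10.16 and 10.52 and then 10.84, 10.87 and 10.92, a change of 0.56 (SE 0.09, limma adjusted p = 0.00079). In both the groups were apart. Psmd8 rose by 0.54 with the smallest adjusted p of the 46 (limma adjusted p = 2.7e-05). The scaffold subunits Psmd1 and Psmd2 rose by 0.42 and 0.39, and Psmd14, the deubiquitinase that removes ubiquitin chains from substrates at the lid, by 0.38, and its partner Psmd7 by 0.49. Averaged over its probe sets Psmd7 was at 0.06 and did not pass (limma adjusted p = 0.683). Psmd3 rose by 0.44, Psmd11 by 0.27 and Psmd12 by 0.25. Psmd11 lost its call without USP7-titled replicate 3 (limma adjusted p = 0.0687) or control replicate 2 (0.0505), and averaged over its probe sets (0.14, limma adjusted p = 0.186). Psmd12 lost it without any one array other than control replicate 1 (limma adjusted p = 0.0511 to 0.114). The ubiquitin receptor Psmd4 did not pass, at 0.08 (95% interval -0.07 to 0.23, limma adjusted p = 0.392), and its other probe sets were at 0.03 and 0.04. Over the constitutive core and regulatory particle together, 28 of 32 genes were higher by limma and 0 lower, beside 17% and 15.9% of all genes. At an unadjusted p under 0.05, 0 of the 32 were lower, beside 2636 of all 12393 genes.

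**Figure D3:**
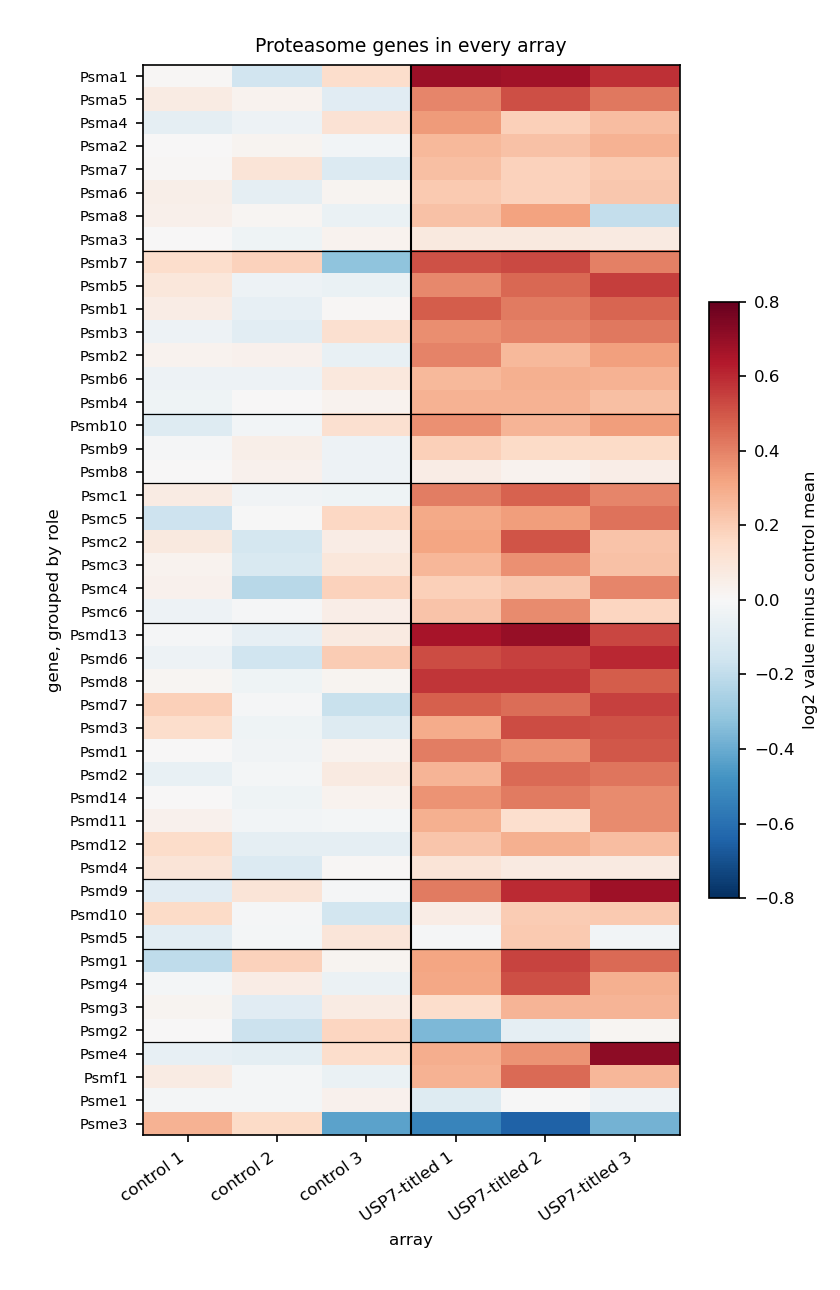
Log2 value of each proteasome gene in each array minus its control mean (colour, red higher, blue lower), with genes grouped by role (vertical axis) and control arrays left of the line (horizontal axis). Most core and regulatory particle rows are red in the USP7-titled columns, Psma8 is blue in USP7-titled replicate 3, and the median over genes is 0.29, 0.35 and 0.31 in USP7-titled replicates 1, 2 and 3.

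Of the 7 assembly factors 3 were higher and 4 did not pass. They were dimmer than the core and regulatory particle genes, with a median control percentile of 67.3 beside 89.6, and the counts of these groups were not tested against each other. Psmd9, a chaperone of the base, read 9.12, 9.31 and 9.20 in the controls and 9.63, 9.81 and 9.89 in the USP7-titled arrays, higher by 0.56 (SE 0.10, limma adjusted p = 0.0015) with the groups apart. Averaged over its probe sets it was at 0.18 and did not pass (limma adjusted p = 0.146). Psmd10, the base chaperone known as gankyrin, lies on the X chromosome. It read 9.24, 9.08 and 8.94 and then 9.14, 9.29 and 9.30, which overlap, and its change of 0.16 did not pass (limma adjusted p = 0.311). The third base chaperone, Psmd5, was at 0.06 (limma adjusted p = 0.675). Among chaperones of the core, Psmg1 read 8.89, 9.28 and 9.12 and then 9.42, 9.64 and 9.55, a change of 0.44 (SE 0.12, limma adjusted p = 0.0146). Psmg4 read 9.40, 9.47 and 9.37 and then 9.72, 9.93 and 9.70, a change of 0.37 (SE 0.10, limma adjusted p = 0.012). Both sets were apart, yet each missed the threshold without USP7-titled replicate 2 (limma adjusted p = 0.0533 for Psmg1 and 0.0516 for Psmg4), and Psmg1 also without control replicate 1 (0.0669). Psmg2, which pairs with Psmg1 to guide the alpha ring, was at -0.14 (limma adjusted p = 0.432) and Psmg3, which pairs with Psmg4, at 0.23 (limma adjusted p = 0.0939). Under spike scaling the Psmg2 value turned to 0.019.

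Activators showed both directions. Psme3, which forms the nuclear activator ring, read 11.78, 11.65 and 11.08 in the controls and 10.97, 10.86 and 11.13 in the USP7-titled arrays, a change of -0.52 (SE 0.15, 95% interval -0.85 to -0.19, limma adjusted p = 0.0198). Control replicate 3 lay at the level of the USP7-titled arrays, so the groups overlapped. A second bright Psme3 probe set went the other way, at 0.14 (SE 0.06, limma adjusted p = 0.109 in a fit of all probe sets), and the call was lost under spike scaling (-0.36, limma adjusted p = 0.0603) and without control replicate 1 (limma adjusted p = 0.0878), control replicate 2 (0.0836), USP7-titled replicate 1 (0.0525) or USP7-titled replicate 2 (0.0657). Psme4, which forms the other nuclear activator and acts on acetylated histones, read 9.04, 9.03 and 9.25 and then 9.40, 9.47 and 9.82, a change of 0.45 (SE 0.13, limma adjusted p = 0.0167) with the groups apart. It lost the call without USP7-titled replicate 3 (limma adjusted p = 0.0619), control replicate 1 (0.0627) or control replicate 2 (0.064). In a fit of all probe sets, its next brightest (mean 8.82) was at 0.0007 (limma adjusted p = 0.996). A dimmer Psme4 probe set (mean 8.37) was at 0.40 (limma adjusted p = 0.0448). The inhibitor Psmf1 rose by 0.33 (SE 0.10, limma adjusted p = 0.0255), but not past the threshold without USP7-titled replicate 2 (limma adjusted p = 0.0954), control replicate 2 (0.0747) or control replicate 3 (0.0734), and it turned to -0.045 averaged over its probe sets. Psme1, a subunit of the activator induced by interferon gamma, read 12.63 ± 0.03 and 12.58 ± 0.05 (SD, n = 3 each), a change of -0.05 (95% interval -0.13 to 0.03, limma adjusted p = 0.355) that turned to 0.11 under spike scaling.

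The members' signal and change were compared because Psmb8 and Psme1, the least changed members, were among the brightest. Other members that changed little were dimmer. Psmd5 changed by 0.06 at the 77.3th percentile of control means and Psmg2 by -0.14 at the 72.9th, beside a members' median percentile of 88.6. Over 45 members without the dim Psma8, Pearson's r between control mean and change was -0.35 and Spearman's rho -0.41, across genes of the same arrays. The change is a difference from that same control mean, so spread in it pushes r below 0 by construction. Over all 4557 genes with a control mean of 9 or more, r was -0.07 and rho -0.05. The 7 members with a control mean over 12 had a median change of 0.16, and the 37 between 9 and 12 one of 0.36. Among all genes the same 2 ranges had medians of -0.04 (401 genes) and 0.003 (4156 genes). Psmb3, at 12.31 in the controls, rose by 0.40. The part of signal level in the size of the changes was not tested.

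**Figure D4:**
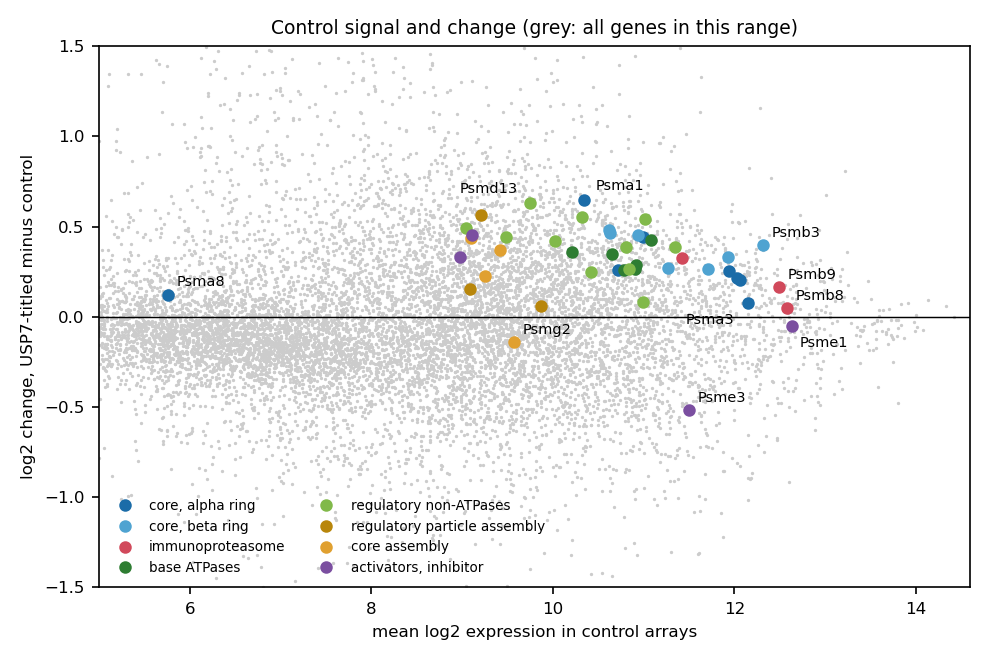
Log2 change (vertical axis) against mean log2 expression in the control arrays (horizontal axis) for the 46 proteasome genes, coloured by role, over all genes with a change within 1.5 either way (grey). Most members form a band above 0 between 9 and 12, Psmb8 and Psme1 lie near 0 above 12, and Psme3 lies at -0.52.

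Many members had further probe sets, which report other parts of the transcript. The 46 genes had 83 probe sets, and 21 genes had more than 1. Of the 37 probe sets that were not the brightest, 12 were higher, 1 was lower and 24 did not pass in a fit of all 20380 gene probe sets, in which 16.3% were higher and 16.7% lower. Of the 14 with a mean of 9 or more, 9 were higher and 0 lower. Some bright probe sets of a gene lay close together: Psmb3 rose by 0.40 and 0.34, Psmb4 by 0.26 and 0.24, Psmc2 by 0.35 and 0.33, and Psmd6 by 0.56 and 0.42. Others did not, as with the Psme3 pair (-0.52 and 0.14), Psmd11 (0.27, beside 0.12 and -0.03 at means of 9.95 and 9.86) and Psma6 (0.20, beside -0.02 at a mean of 9.09). In all, 13 of the 37 had the opposite sign to the brightest probe set of their gene. They belonged to Psma1 (-0.97 and -0.15), Psma5 (-0.14), Psma6 (-0.56 and -0.02), Psmd7 (-0.24 and -0.07), Psmd9 (-0.20), Psmd11 (-0.27 and -0.03), Psmf1 (-0.37 and -0.23) and Psme3 (0.14). Their means ran from 3.61 for Psma1 to 11.06 for Psme3, with Psmd7 at 7.63 and 7.58 and Psmd9 at 6.86. The Psma1 probe set at -0.97 was the 1 that was lower (limma adjusted p = 0.000155).

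**Figure D5:**
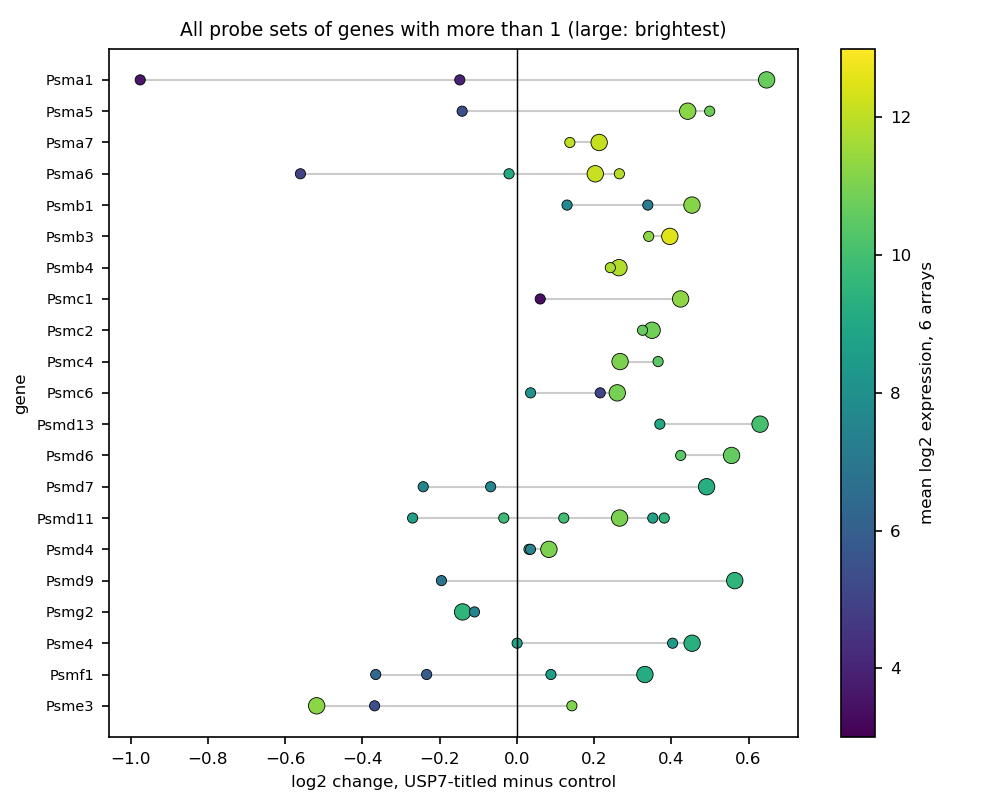
Log2 change (horizontal axis) of every probe set of the 21 genes with more than 1 (vertical axis), with colour for the mean log2 expression over 6 arrays and a large point for the brightest probe set. Psmb3, Psmb4, Psmc2 and Psmd6 have all their points close together above 0, points of Psma1 and Psma6 reach -0.97 and -0.56, and the bright Psme3 pair lies on either side of 0.

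The members lie on 16 mouse chromosomes in the reference annotation. Of 63 measured protein-coding genes next to a member, other than members themselves, 4 were higher and 12 lower, with a median change of -0.12, beside 17% and 15.9% of all genes and a median of -0.05. Psmb9 and Psmb8 lie beside Tap1 and Tap2, which carry peptides to MHC class I molecules, and neither passed, with Tap1 at -0.10 (limma adjusted p = 0.19) and Tap2 at 0.05 (limma adjusted p = 0.791). In a list of interferon gamma and class I loading genes 7 of 26 were higher and 6 lower (26.9% and 23.1%), close to the 29.6% and 23% of bright genes. Not all of the list were that bright, and the shares of all genes were 17% and 15.9%. Interferon gamma itself (Ifng) was higher by 1.60 and the chemokine Cxcl9, dim in both groups (4.31 and 5.55), by 1.24. The receptor chain Ifngr2 and the kinase Jak1 were lower by 0.61 and 0.60. Named after their values were seen, Cxcl10 (-0.02), Gbp2 (0.11), Gbp3 (-0.08) and Socs1 (-0.07) did not pass, and Irf1 fell by 0.16. Under spike scaling 3 of the list were lower. The class I heavy chain H2-K1, named after its value was seen, fell by 0.39.

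Of the genes that work with the proteasome, 6 of 21 measured were higher and 2 lower, with a median of 0.09. The share higher, 28.6%, was above the 17% of all genes and close to the 29.6% of bright genes. Not all of the list were that bright, so neither share is an exact reference, and the count is not read as particular to the list. The share lower, 9.52%, was below the 15.9% of all genes and the 23% of bright genes, but it rests on 2 genes. Uchl5, a deubiquitinase bound to the regulatory particle, rose by 0.71 (SE 0.08, limma adjusted p = 7.15e-05), Txnl1, a thioredoxin bound to it, by 0.60 (limma adjusted p = 0.000181) and Pomp, which matures the core, by 0.44 (limma adjusted p = 2.02e-05). The shuttle Ubqln4 fell by 0.60 (limma adjusted p = 0.000243). Others were named after their values were seen. Sem1, a small lid subunit, rose by 0.35, and Ngly1, the glycanase that processes Nfe2l1, by 0.37. Ecpas, which tethers and remodels proteasomes, fell by 0.33. Nfe2l1, the factor that drives proteasome genes, was at 0.03 (limma adjusted p = 0.839). Nfe2l2, also on the list, was at 0.38 and did not pass (limma adjusted p = 0.0587). The deubiquitinase Usp14 was at -0.24 (limma adjusted p = 0.204). Under spike scaling 11 of the list were higher and 1 lower.

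Other gene groups were counted in the same arrays, in which 17% of all genes were higher and 15.9% lower. Of 24 cell cycle genes 23 were higher, with a median of 2.42; their summed linear signal was 16990 to 18663 in the controls and 57595 to 58570 in the USP7-titled arrays. Of 19 myeloid markers 12 were higher and 2 lower, with summed signals of 8198 to 8977 and 10211 to 11770, and 2 of the 19 lay above the median gene in the controls. Their median change was 1.55, while Ctss, the brightest of them in the controls, fell by 0.48. Of 13 CD8 T and NK cell markers 5 were higher and 1 lower (4987 to 5174 and 16520 to 17433). The median change of these 13 was 0.19. Gzmb went from 9.35 to 12.64 and Nkg7 from 9.47 to 12.24, while Cd8a, Cd8b1, Ncr1, Klrd1 and Klrk1 did not pass; these genes were named after their values were seen. Of 13 B cell markers 5 were higher and 1 lower (7575 to 8065 and 7992 to 9067). Their changes had a median of -0.04, and 6 of the 13 were above 0. Of 11 Treg and T cell markers 8 were lower and 0 higher by limma (59705 to 61549 and 46824 to 47325). At an unadjusted p under 0.05, 0 of the 11 were higher, beside 2530 of all 12393 genes. Array values have no true zero, so no marker can be called absent. The part of these groups, and of sex, in the change of the proteasome genes was not tested.

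The genes that met the rule by name but encode no proteasome part differed in the size of their change. Psmc3ip read 8.44, 8.02 and 8.15 in the controls and 9.26, 9.18 and 8.86 in the USP7-titled arrays and rose by 0.90 (SE 0.14, limma adjusted p = 0.000565), more than any of the 46. Psme3ip1 was at -0.15 (limma adjusted p = 0.248).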

How the data were processed

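The authors deposited log2 values, 1 per probe set and array; base 2 was read from their range (2.21 to 14.47). Per the labels' protocols, total RNA was amplified and biotin-labelled. No source used here names the summarisation or normalization, and depth has no meaning for arrays: their number, 3 per group, limits the precision, with a median residual SD of 0.136 per gene. Of 22690 probe sets 64 were array controls; 20380 had a single symbol, 691 several and 1555 none, by a platform annotation table. Of the 20380, 20351 matched the reference table (GRCm38.p6) by gene ID, and 0 symbols changed. The brightest probe set by the mean of all 6 arrays stood for each of 12393 genes. Groups came from the titles.

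The comparison used R 4.3.3 and limma 3.58.1: lmFit, then eBayes with trend, with two-sided p-values adjusted by Benjamini-Hochberg over all genes and a threshold of 0.05, without a replicate block; the fit was tested on simulated data. Differences within arrays had a two-sided exact permutation test. Summed linear signals are sums of 2 to the power of the log2 values.

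Every member is named. Array values are given for Psmb5 to Psmb10, for the 2 members of each role with the largest change and for each that fell; from 2 further lists up to 4 genes past the threshold are named. The members and lists were chosen with earlier results of these data known. Alternatives were other scalings, filters, probe set rules, variance models, thresholds, the block, and leaving out X and Y genes or each array. Control and USP7-titled arrays share replicate numbers, but deviations of same-numbered arrays correlated at 0.08, -0.06 and 0.09, so the numbers were not taken to pair samples.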

Additional observations from a re-analysis of the deposited data

How the results depend on the processing

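The count of higher proteasome genes ran from 28 to 40 over the alternatives at a threshold of 0.05 and was 24 at 0.01, and 18 of the 35 were higher in every alternative that included them. The 1 lower gene, Psme3, was no longer called (0 lower) at 0.01, by eBayes without trend, with spike scaling and with the mean of probe sets; leaving out 1 array gave 0 to 1. The members' median was 0.486 with spike scaling, 0.257 with the mean of probe sets and 0.261 with quantile normalization, and 0.295 to 0.325 with 1 array left out. With the mean of probe sets, in which dim probe sets count fully, Psma1 turned to -0.16, Psma6 to -0.028 and Psmf1 to -0.045. Psmc1 (0.24), Psmc6 (0.17), Psmd7 (0.06), Psmd9 (0.18) and Psmd11 (0.14) lost their calls there without a change of sign. By eBayes without trend Psma4, Psma6, Psma7, Psmb9, Psmc6, Psmd11 and Psmd12 lost theirs, as did Psma4, Psma7, Psmc6 and Psmd12 with quantile normalization. With spike scaling Psme1 turned to 0.11, Psmg2 to 0.019 and Psme3ip1 to 0.011, and without USP7-titled replicate 2 Psmd5 turned to -0.014; none of these had passed before the change of sign other than Psma1, Psma6 and Psmf1, and none passed after it. With spike scaling 944 genes were lower over the whole array, as were 1206 at 0.01. Associated genes numbered 11 higher and 1 lower with spike scaling, 1 lower at 0.01, and 4 to 5 higher and 1 to 3 lower with 1 array left out. Interferon and class I genes numbered 4 higher at 0.01, 3 lower with spike scaling, and 4 to 7 higher with 1 array left out. Psmb10 minus Psmb7 ran from -0.276 to 0.071 with 1 array left out. With the replicate number as a block 36 members were higher and 1 lower; Psmc4 was the member whose call changed. Causes were not tested beyond the settings' own construction.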
